A study of Mus musculus with 8 samples.

Results

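The mitochondrial ribosome is built from proteins that are encoded in the nucleus, and the genes of these proteins, named Mrpl for the large and Mrps for the small subunit, were compared between Carm1-edited and control mouse T cells. Members were the protein-coding genes of the count tables whose symbol begins with Mrpl or Mrps followed by a digit, 78 of 49315 genes. The rule uses the name alone, but it was chosen with earlier results of these data known. The 5 pseudogenes with such a symbol were left out. All 78 members passed the filter on low counts, so none was lost from the counts given here.

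Polyadenylated RNA was sequenced from CD8 T cells of OT-I mice, whose transgenic receptor recognises an ovalbumin peptide, with 4 libraries labelled Control KO and 4 labelled Carm1 KO. Control KO cells, also labelled WT, were edited with a CRISPR guide RNA against the bacterial gene LacZ, and Carm1 KO cells with one against Carm1, which methylates arginines of histones and other proteins and coactivates transcription. Both groups were CD45.1 cells isolated as naive cells from spleen and inguinal lymph node, grown with IL-7 at 2.5 ng/ml and IL-15 at 50 ng/ml, nucleofected, and collected 7 days after editing. The labels do not state the age of the mice or the number of cultures, and guide sequences were not used here. According to the labels the 4 libraries of each group are technical replicates. The p-values therefore reflect library-to-library spread alone, and an effect of the edit cannot be told apart from other differences between the cells of the groups. The series text places both groups in co-culture with B16F10 melanoma cells expressing ovalbumin, which the sample protocols do not mention.

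Mitochondrial ribosomes translate the few messenger RNAs of the mitochondrial genome, all of which encode subunits of the respiratory chain and ATP synthase. Their ribosomal RNAs are transcribed in the mitochondrion, whereas every protein of the particle is made in the cytosol and imported. Many of these proteins have bacterial counterparts and the others are specific to mitochondria. Activated T cells are known to expand their mitochondria and to need mitochondrial translation for proliferation and effector function.

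Promoter sequence is shown first for 4 members that stood near the ends of the range of change and had an entry in the RefSeq promoter table (GRCm38.p6, the assembly of mm10). Each window runs from 250 bases before to 50 bases after an annotated start, 5′ to 3′ on the strand of the gene. Capitals mark matches, on either strand, to any of 4 motifs searched, which were CACGTG (the E-box read by MYC and related factors), CCGGAAG (a core of ETS factor sites, among them those of GABPA), the NRF1 site, whose letters are the capitals of Mrpl9, and the YY1 site. The windows are chr17:35916391-35916690 on the minus strand for Mrps18b, chr9:98601630-98601929 on the minus strand for Mrps22, chr14:20393441-20393740 on the minus strand for Mrps16 and chr3:94443086-94443385 on the plus strand for Mrpl9.
Mrps18b: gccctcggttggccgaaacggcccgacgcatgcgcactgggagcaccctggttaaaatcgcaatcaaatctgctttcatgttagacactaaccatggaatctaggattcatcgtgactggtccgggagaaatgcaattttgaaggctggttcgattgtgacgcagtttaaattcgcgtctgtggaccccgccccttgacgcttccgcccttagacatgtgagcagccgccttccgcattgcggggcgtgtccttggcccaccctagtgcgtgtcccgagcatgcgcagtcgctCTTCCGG
Mrps22: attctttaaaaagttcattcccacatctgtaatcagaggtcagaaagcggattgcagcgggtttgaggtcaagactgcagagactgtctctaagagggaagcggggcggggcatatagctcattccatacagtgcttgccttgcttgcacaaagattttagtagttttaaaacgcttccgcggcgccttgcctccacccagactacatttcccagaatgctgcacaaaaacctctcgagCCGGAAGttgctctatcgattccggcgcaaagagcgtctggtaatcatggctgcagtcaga
Mrps16: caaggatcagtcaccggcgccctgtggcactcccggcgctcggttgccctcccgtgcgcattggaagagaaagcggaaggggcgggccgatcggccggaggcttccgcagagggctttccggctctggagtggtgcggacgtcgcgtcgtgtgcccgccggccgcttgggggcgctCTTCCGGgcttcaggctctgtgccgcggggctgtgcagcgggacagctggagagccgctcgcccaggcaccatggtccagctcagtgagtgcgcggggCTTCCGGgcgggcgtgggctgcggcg
Mrpl9: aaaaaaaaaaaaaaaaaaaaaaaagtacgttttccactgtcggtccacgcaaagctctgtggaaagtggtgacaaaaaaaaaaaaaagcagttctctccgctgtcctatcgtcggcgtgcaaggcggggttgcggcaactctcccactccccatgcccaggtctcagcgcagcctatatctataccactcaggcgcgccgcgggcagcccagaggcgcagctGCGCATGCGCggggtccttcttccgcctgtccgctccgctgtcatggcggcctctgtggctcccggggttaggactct
The capitals in Mrps18b, Mrps22 and Mrps16 are CCGGAAG or its reverse complement, and those in Mrpl9 are the NRF1 site. Mrps18b and Mrps22 are among the members that fell most, and Mrps16 and Mrpl9 are the pair that rose most.

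For each member the window nearest the start of the counted gene was taken, while the comparison shares use every window listed. The nearest window lay 17016 bases from that start for Mrpl33, which holds CCGGAAG, and 7979 bases for Mrps24. Windows were found for 69 of the 78 members. CCGGAAG was in 36.2% of these, against 17.4% of the windows of all tested genes and 8.86% of all 32851 windows in the table. CACGTG was in 7.25% of member windows, against 9.81% of tested genes and 7.15% of all windows. The NRF1 site was in 3 member windows (4.35%), against 2.03% and 0.971%, and the YY1 site in 5 (7.25%), against 1.44% and 0.633%. The motifs did not sort the members by their change in a single way. Of the windows with CCGGAAG, 18 belonged to members that fell and 4 to members that rose, with a median log2 fold change of -0.60, against -0.70 for windows without it. Counting only matches upstream of the start, these were 10 and 4, and the order of the medians turned, with -0.84 against -0.68. Of the 69 windows 55 belonged to members that fell. The 5 members with CACGTG, Mrpl20, Mrpl36, Mrps18c, Mrpl2 and Mrpl37, and the 5 with the YY1 site, Mrps18a, Mrps27, Mrpl35, Mrpl37 and Mrps11, all fell. Those with the NRF1 site were Mrpl39, which fell, and Mrpl32 and Mrpl9, which rose. Each motif was searched as a single exact string, so near matches to the NRF1 and YY1 sites were neither counted nor marked. A match is a description of the letters in these windows and shows no binding. The members with each motif were listed after their values were known.

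Total counts were 38768760 to 41439998 in the Control KO libraries and 37556330 to 39988442 in the Carm1 KO libraries. By these unscaled totals 3 counts equal 0.0724 to 0.0799 CPM. Levels are given as CPM after TMM scaling unless TPM is named. Carm1 itself was at 95.9 ± 1.04 CPM in Control KO and 32.8 ± 0.493 CPM in Carm1 KO (SD, n = 4). All 8 T cell markers were detected, 7 higher and 1 lower in Carm1 KO, with a summed level of 4121 to 4216 CPM in Control KO and 6057 to 6239 CPM in Carm1 KO. Of 12 myeloid markers 11 were lower and 1 was higher in Carm1 KO, with summed levels of 158 to 163 CPM and 25.4 to 26.9 CPM. The 8 B cell markers summed to 274 to 281 CPM and 931 to 957 CPM, most of it Ighm, while Pax5 was at 0.0812 and 0.0185 CPM. Only 4 of them passed the filter on low counts, and of these 3 were higher and 1 was lower in Carm1 KO. The lower marker was Igkc, at 17.5 CPM in Control KO and 0.306 CPM in Carm1 KO. Among the 7 melanoma markers Tyr, Tyrp1, Dct and Sox10 had 0 counts in all 8 libraries, and Pmel was at 3.43 and 12.7 CPM. The 4 natural killer cell markers summed to 86.0 to 88.9 CPM and 45.3 to 50.5 CPM, and the 4 erythroid markers to 3.90 to 4.48 CPM and 0.144 to 0.385 CPM. The part of these differences in the results was not tested.

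Most mitochondrial ribosomal protein genes were lower in the Carm1 KO libraries. Of the 78 members 63 fell, 9 rose and 6 did not pass (edgeR quasi-likelihood test, adjusted p under 0.05 over all genes tested). Their summed level was 4208 ± 48.4 CPM in Control KO and 3007 ± 78.6 CPM in Carm1 KO (SD, n = 4). Every Carm1 KO library had a lower sum than every Control KO library. Among all 14970 genes tested 43.2% were lower and 44.5% were higher, 87.7% in all, so calls in either direction were common in these libraries. The median log2 fold change (Carm1 KO minus Control KO) was -0.69 over the members and 0.02 over all genes, and 66 members lay below the median of all genes. At least 2-fold differences were found for 22 members that fell, against 15.2% of all genes, and for 1 that rose, against 20.5%. In bulk RNA, fewer cells of a type and less RNA per cell cannot be told apart.

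Scaling moved the level of all log2 fold changes together. Upper-quartile factors moved the median of all genes by 0.215 and library totals alone by 0.160, while the difference between the median of the members and that of all genes was -0.71 under each of these and under TMM factors. With upper-quartile factors 54 members fell and 16 rose, so that 22.9% of the passing members were higher, against 12.5% with TMM factors. For all genes that share was 61.0% against 50.8%. Members with small falls therefore turned to positive values under upper-quartile factors. Beside members described further on, these were Mrpl33 (log2 fold change -0.16, turned to 0.055), Mrpl44 (-0.15 to 0.067) and Mrpl14 (-0.13 to 0.081), named after their values were seen. Mrpl33 and Mrpl44 then did not pass, and Mrpl14 passed as higher (edgeR adjusted p = 0.049).

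**Figure D1:**
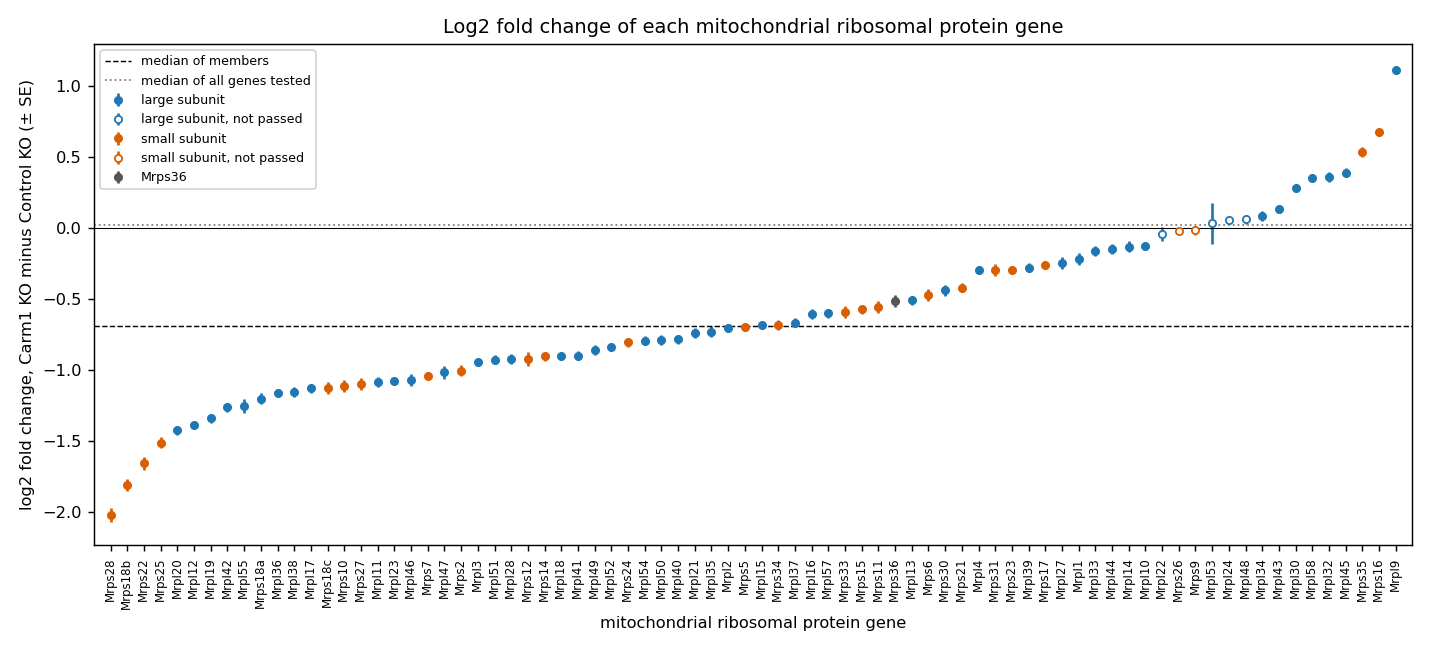
Log2 fold change (Carm1 KO minus Control KO, vertical axis) with its standard error for each of the 78 genes, ordered along the horizontal axis and coloured by subunit, with open points for the 6 that did not pass. The points run from -2.02 for Mrps28 to 1.11 for Mrpl9, and most lie below the median of all genes tested (dotted line at 0.02).

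The change was graded rather than uniform. Log2 fold changes of -1 or below were found for 22 members, between -1 and -0.5 for 27, between -0.5 and 0 for 17 and above 0 for 12. Libraries of one group differed little, with a median SD over members of 2.38% of the mean in Control KO and 3.92% in Carm1 KO. The groups did not overlap for 62 members that were lower and 8 that were higher, against 41.2% and 42.2% of all genes, or 83.4% in either direction. Across the 78 members the log2 fold change showed almost no relation to the level per length in Control KO (Spearman rho = -0.02) or to gene length (rho = -0.02), which are descriptions across genes that share libraries.

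Small-subunit proteins held the first places among the falls. Mrps28, a small-subunit protein encoded on chromosome 3 (8802146 to 8923918, minus strand, mm10), was at 34.8, 38.8, 37.3 and 39.7 CPM in the 4 Control KO libraries and at 9.78, 8.68, 9.32 and 9.25 CPM in the 4 Carm1 KO libraries. Each Carm1 KO library was thus far below each Control KO library. The log2 fold change was -2.02 ± 0.048 (SE, edgeR adjusted p = 7.5e-33), a 4.06-fold fall. Mrps22, a mitochondria-specific protein whose human counterpart is mutated in a respiratory chain disorder, was at 32.0, 32.8, 31.7 and 31.4 CPM in Control KO and 10.8, 9.66, 10.0 and 10.1 CPM in Carm1 KO. It fell 3.15-fold (log2 fold change -1.66 ± 0.045). Mrps25, another small-subunit protein, fell from 38.6 ± 1.23 to 13.5 ± 0.352 CPM. Its exons share 69.8% of their bases with the opposite-strand gene Nr2c2, which was at 48.6 and 48.7 CPM, and the kit does not mark strand, so the level of Mrps25 is uncertain.

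The S18 proteins are a family of 3 similar genes in mammals, and the subunit symbol does not tell where each sits. Mrps18b and Mrps18c belong to the small subunit, while Mrps18a is found in the large subunit. All 3 fell. Mrps18b was at 39.8, 40.3, 37.0 and 39.4 CPM in Control KO and 12.01, 10.9, 10.9 and 10.7 CPM in Carm1 KO, a 3.51-fold fall (log2 fold change -1.81 ± 0.044). Mrps18a fell 2.30-fold, from 48.0 ± 1.65 to 20.8 ± 1.40 CPM, and Mrps18c fell 2.19-fold, from 39.4 ± 0.792 to 18.01 ± 1.24 CPM. Compared per length, in TPM (counts per exonic length, scaled to the same sum in each library, with the deposited gene lengths), the order also changed. In Control KO Mrps18c was at 91.0 ± 2.24, Mrps18b at 46.6 ± 2.11 and Mrps18a at 32.3 ± 1.42 TPM. In Carm1 KO Mrps18c was at 43.0 ± 1.91 TPM, and Mrps18a (14.5 ± 0.604) and Mrps18b (13.7 ± 0.623) lay closer together. The exons of Mrps18b and Mrps18c share 30.5% and 23.2% of their bases with the low genes Gm16279 and Gm43511, at 2.39 and 0.913 CPM in Control KO.

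**Figure D2:**
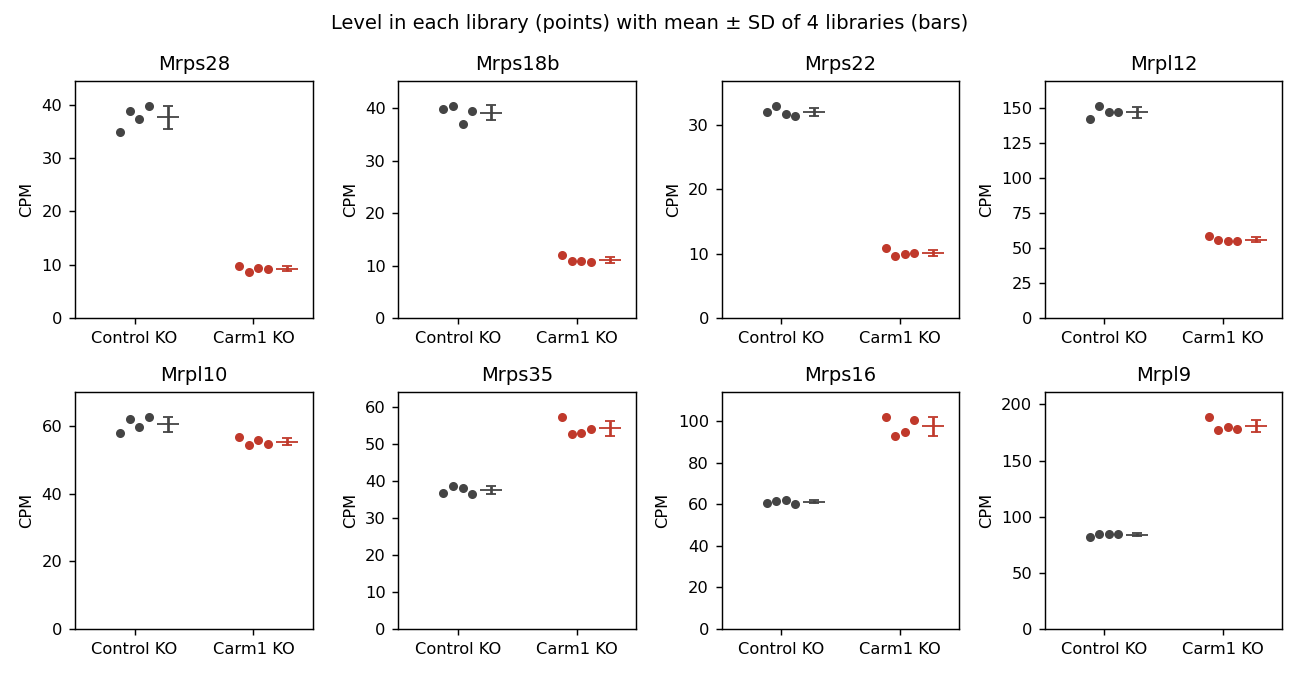
CPM in each library (points, vertical axis from 0) and mean ± SD of the 4 libraries (bars) for 8 genes in Control KO and Carm1 KO. Mrps28, Mrps18b, Mrps22 and Mrpl12 are lower in every Carm1 KO library, Mrpl10 is close in both groups, and Mrps35, Mrps16 and Mrpl9 are higher in every Carm1 KO library.

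In the large subunit the stalk proteins differed in their change. Mrpl12, the counterpart of the bacterial stalk protein that recruits translation factors, was at 142, 151, 147 and 147 CPM in Control KO and 58.5, 55.9, 54.9 and 55.2 CPM in Carm1 KO. Every Carm1 KO library was below every Control KO library, and the log2 fold change was -1.39 ± 0.027 (edgeR adjusted p = 2.7e-36), a 2.62-fold fall. Mrpl10, which anchors Mrpl12 to the ribosome, was at 60.5 ± 2.18 and 55.4 ± 1.07 CPM. Its log2 fold change of -0.13 ± 0.029 (edgeR adjusted p = 1.1e-04) passed with TMM factors, but the direction turned with upper-quartile factors (0.09) and with library totals alone (0.03), the call was also lost with at least 5 CPM in 4 libraries (adjusted p = 0.25), and the adjusted p ran up to 0.28 over the alternatives outside the test against a 1.5-fold change. The ratio of Mrpl12 to Mrpl10 in TPM, which does not depend on the scaling, was 2.71 ± 0.0574 in Control KO and 1.13 ± 0.0232 in Carm1 KO, with no overlap between the groups.

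Other large-subunit proteins fell more than 2-fold. Mrpl20, the counterpart of a bacterial assembly protein of the large subunit, fell from 72.9 ± 1.53 to 27.1 ± 0.631 CPM (2.69-fold). Mrpl19 fell from 70.4 ± 1.65 to 27.8 ± 1.31 CPM (2.53-fold), although its exons share 36.0% of their bases with the opposite-strand gene Gcfc2, which rose from 12.01 to 17.0 CPM. Mrpl42, specific to mitochondria, fell from 63.2 ± 1.16 to 26.3 ± 1.49 CPM (2.40-fold), and Mrpl55, the counterpart of a bacterial bridge protein between the subunits, fell from 24.3 ± 1.34 to 10.2 ± 0.277 CPM (2.39-fold). Mrpl47 fell 2.02-fold, from 24.0 ± 0.696 to 11.9 ± 0.510 CPM, and its exons share 10.2% of their bases with Actl6a, which fell from 109.6 to 55.7 CPM, and 13.9% with Ndufb5. The other members at or past 2-fold were Mrpl36, Mrpl38, Mrpl17, Mrps10, Mrps27, Mrpl11, Mrpl23, Mrpl46, Mrps7 and Mrps2, with log2 fold changes from -1.16 to -1.01.

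Smaller falls were found for other members. Mrps30, which despite its symbol is part of the large subunit, fell 1.36-fold (35.6 ± 0.702 to 26.2 ± 1.14 CPM), and its exons share 37.8% of their bases with the low antisense gene B430218F22Rik. Mrpl57 fell 1.52-fold, from 74.4 ± 0.676 to 49.0 ± 2.62 CPM. Mrpl54 fell 1.73-fold, from 76.6 ± 0.403 to 44.2 ± 1.87 CPM. Mrps36, which was named as a ribosomal protein but is known as a component of the 2-oxoglutarate dehydrogenase complex, fell 1.43-fold, from 30.6 ± 0.720 to 21.4 ± 1.06 CPM.

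Mrpl46 and Mrps11, the only pair of members whose annotated genes overlap, are divergent genes on chromosome 7 whose exons overlap by 173 bases at their starts. Their log2 fold changes were -1.07 ± 0.042 and -0.56 ± 0.041.

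The 9 members that rose were led by Mrpl9 and Mrps16, both counterparts of bacterial ribosomal proteins. Mrpl9 (chromosome 3, 94443318 to 94451130, plus strand) was at 81.8, 84.5, 84.3 and 84.8 CPM in Control KO and 189, 177, 180 and 178 CPM in Carm1 KO. All Carm1 KO libraries were above all Control KO libraries, and the log2 fold change was 1.11 ± 0.025 (edgeR adjusted p = 1.3e-33), a 2.16-fold rise. Mrps16, a small-subunit protein whose human counterpart is mutated in a mitochondrial translation disorder, was at 60.9, 61.6, 62.0 and 60.3 CPM in Control KO and 102, 92.8, 94.7 and 100.5 CPM in Carm1 KO, a 1.59-fold rise. It was the member with the highest level per length in both groups, and its share of the summed TPM of all members went from 4.55% ± 0.0805 to 10.1% ± 0.234.

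Mrps35, a mitochondria-specific small-subunit protein, rose 1.45-fold, from 37.5 ± 1.06 to 54.3 ± 2.07 CPM. Mrpl45, which lies at the exit of the peptide tunnel and ties the ribosome to the inner membrane, rose 1.31-fold, from 43.6 ± 1.55 to 57.2 ± 1.68 CPM. Mrpl32, which is matured by a mitochondrial protease before it enters the ribosome, rose 1.28-fold, from 31.6 ± 0.354 to 40.5 ± 2.18 CPM. Mrpl58, a peptidyl-tRNA hydrolase that is also a ribosomal subunit and can release stalled peptides, rose 1.28-fold, from 74.2 ± 1.55 to 94.9 ± 2.94 CPM. Mrpl30 rose 1.22-fold, from 105 ± 1.97 to 128 ± 4.55 CPM. Mrpl43 was at 55.5 ± 1.72 and 60.9 ± 2.45 CPM (log2 fold change 0.13 ± 0.030). Mrpl34 was at 46.2 ± 2.16 and 48.9 ± 2.35 CPM, its groups overlapped, and its call (log2 fold change 0.08 ± 0.035, edgeR adjusted p = 0.026) was lost with RLE factors (adjusted p = 0.067), with DESeq2 (adjusted p = 0.12), without a filter (adjusted p = 0.11) and without Control KO replicate 1, 2 or 4 or Carm1 KO replicate 1, in a range of adjusted p from 1.6e-09 to 1 over the alternatives.

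The 6 members that did not pass had log2 fold changes from -0.04 to 0.06. Mrpl22 and Mrpl24, which line the peptide tunnel, were at 19.6 ± 0.529 and 19.0 ± 1.52 CPM and at 96.4 ± 2.72 and 99.9 ± 2.75 CPM. Mrps9 was at 59.4 ± 1.95 and 58.7 ± 2.45 CPM, Mrps26 at 61.5 ± 1.32 and 60.6 ± 1.95 CPM, and Mrpl48 at 46.0 ± 1.10 and 47.9 ± 1.40 CPM. Mrpl53 was the lowest member, at 1.49 ± 0.170 and 1.53 ± 0.218 CPM. Gm42688, an overlapping gene on the same strand, shares 88.0% of its exonic bases, so its level is uncertain. The other 77 members were above 10 CPM in every Control KO library. Except for Mrpl53, the 6 members that did not pass with TMM factors passed as higher with upper-quartile factors and with library totals alone.

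Falls outnumbered rises in both subunits. Placing Mrps30 and Mrps18a with the large subunit and leaving out Mrps36, 40 of 51 large-subunit members fell and 7 rose, with a median log2 fold change of -0.70. Of 26 small-subunit members 22 fell and 2 rose, with a median of -0.69. The ratio of the mean TPM of large-subunit to small-subunit members differed between groups without overlap. It was 1.22 ± 0.0025 in Control KO and 1.13 ± 0.0067 in Carm1 KO. This ratio leans on Mrps16, which rose. Mrps16 held 269 of the 1725 TPM summed over small-subunit members in Control KO, and 443 of 1348 TPM in Carm1 KO. The ratio therefore does not describe the small-subunit members other than Mrps16, and it was not computed without that gene. The 46 members with a bacterial counterpart had 38 falls, 5 rises and a median of -0.70, and the 31 specific to mitochondria had 24 falls, 4 rises and a median of -0.68. The difference between these classes was not tested. Since the kit does not mark strand, reads of overlapping exons cannot be told apart. Of the 61 members that share under 10% of their exonic bases with another gene 48 fell and 9 rose, with a median of -0.67, and of the other 17 members 15 fell and 0 rose, with a median of -0.90.

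Levels per length differed widely between members within each group. The median member was at 58.8 TPM in Control KO and 40.2 TPM in Carm1 KO. In Control KO the 4 highest were Mrps16 (269 TPM), Mrpl12 (238), Mrpl42 (236) and Mrpl54 (231), and the 4 lowest were Mrpl53 (4.69 TPM), Mrps35 (10.8), Mrps10 (12.02) and Mrpl47 (13.5). Without Mrpl53 the ratio of the highest to the lowest level was 24.9 in Control KO and 83.7 in Carm1 KO, and the SD of log2 TPM over these 77 members went from 1.16 to 1.30. By rank of TPM, Mrps28 moved from place 14 to place 46 and Mrpl9 from place 30 to place 3. The deposited length counts all exonic bases of a gene, so the TPM of genes with rarely used exons is understated. Whether exon use differed between the groups was not tested.

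**Figure D3:**
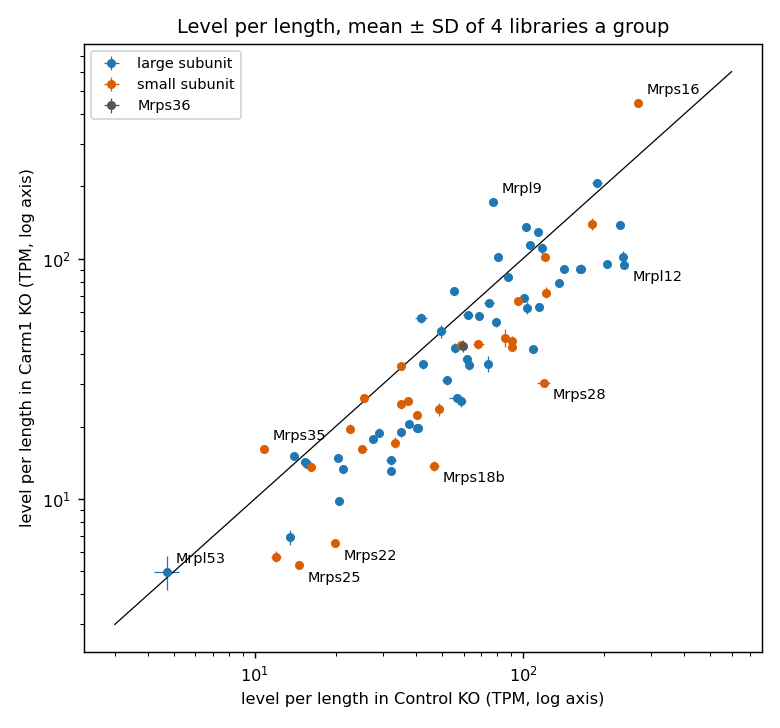
Mean level per length (TPM, log axes) of each member in Control KO (horizontal) and Carm1 KO (vertical), with the SD of 4 libraries and the line of equal level. Most points lie below the line, with Mrps28 and Mrps18b farthest below and Mrpl9 and Mrps16 (442.7 TPM in Carm1 KO) above it.

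Of the other genes of mitochondrial translation, some were as low as the ribosomal proteins while several lists were mixed. Ribosomal subunits that go by other symbols were lower in 4 of 5 cases. Chchd1 and Ptcd3, both of the small subunit, fell 2.50-fold (66.1 ± 0.900 to 26.4 ± 1.73 CPM) and 2.11-fold (68.2 ± 1.22 to 32.3 ± 0.546 CPM). Gadd45gip1, of the large subunit, fell 1.32-fold and Aurkaip1, of the small subunit, 1.18-fold. The call for Aurkaip1 was lost with upper-quartile factors (log2 fold change -0.026, edgeR adjusted p = 0.37), which leaves 3 of 5, and its adjusted p ran from 3.8e-23 to 1 over the alternatives. Dap3, a small-subunit GTPase that was named after its value was seen, was the one that rose, with a log2 fold change of 0.10.

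Assembly factors of the mitochondrial ribosome had 12 falls, 9 rises and 7 that did not pass among 28 tested, with a median log2 fold change of -0.02. These falls and rises were 42.9% and 32.1% of the list, against 43.2% and 44.5% of all genes tested. Fastkd2, an RNA-binding factor of large-subunit assembly, fell from 33.6 ± 0.471 to 9.74 ± 0.623 CPM, and Mrm3, a methyltransferase of the large ribosomal RNA, from 18.3 ± 0.828 to 5.92 ± 0.119 CPM. The GTPase Noa1 and the helicase Dhx30 fell 1.91-fold and 1.69-fold. Translation factors had 7 falls, 6 rises and 3 that did not pass among 16 tested, with a median of -0.01. Of this list 43.8% fell and 37.5% rose. Lrpprc, which stabilises mitochondrial messenger RNAs, fell 3.72-fold, from 162 ± 1.25 to 43.4 ± 0.415 CPM. The elongation factors Gfm1 and Tufm fell 2.17-fold and 1.77-fold, and Tsfm, the exchange factor of Tufm, fell 1.62-fold. The genes named above from these lists, taken by smallest adjusted p, all fell. Among the rises, named after their values were seen, were Mterf4 (1.39-fold) and Mss51 (2.38-fold, from 1.94 to 4.61 CPM).

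Aminoacyl-tRNA synthetases and amidotransferase subunits that act in mitochondria fell in 16 of 22 cases, rose in 2 and did not pass in 4, with a median of -0.47. Yars2 fell 2.90-fold and Tars2 1.68-fold. Kars (2.56-fold lower) and Gars (2.06-fold lower) serve both the cytosol and the mitochondria. Among 22 tested genes of mitochondrial DNA maintenance, transcription and their regulators 13 fell and 7 rose, with a median of -0.29. Pprc1, a coactivator of genes for mitochondrial proteins, fell 5.86-fold (166 ± 2.87 to 28.3 ± 1.33 CPM), Top1mt, the mitochondrial topoisomerase, 3.27-fold, Myc 2.88-fold and Lig3, a DNA ligase, 1.88-fold. Beside these lists stood the myeloid marker Lyz2, which went from 83.1 to 0.148 CPM, and its part in the counts was not tested.

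Among the mitochondrially encoded messenger RNAs, which these ribosomes translate, 9 of 13 rose, 3 fell and 1 did not pass. These rises and falls were 69.2% and 23.1% of the list, against 44.5% and 43.2% of all genes tested. Several of the rises were of genes at low levels. In Control KO mt-Atp8 was at 2.23, mt-Nd3 at 3.08, mt-Atp6 at 7.81, mt-Co2 at 9.72 and mt-Co3 at 11.3 CPM. For mt-Co2 and mt-Co3 the groups overlapped. The cytochrome c oxidase subunit gene mt-Co1 was at 2875 ± 30.9 CPM in Control KO and 7072 ± 106 CPM in Carm1 KO, mt-Nd5 rose 1.35-fold and mt-Nd4 1.21-fold, while mt-Cytb fell 1.45-fold. Libraries were of messenger RNA, and whether the recovery of these RNAs differed between groups was not tested. The 2 ribosomal RNAs of the mitochondrion were looked for but not found among the counted genes, so they were not analysed.

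The nuclear-encoded respiratory chain and ATP synthase subunits fell in most cases, with 65 of 76 lower, 7 higher and a median log2 fold change of -0.58. Atp5g1 and Atp5g3, which encode the same ring subunit of ATP synthase, fell 4.71-fold and 2.35-fold, Ndufa4 fell 3.62-fold, and Atp5b, the catalytic subunit, fell 2.20-fold (1497 ± 17.2 to 681 ± 9.89 CPM). That list was taken by symbol pattern and holds Atp5s, which is not a stable subunit. Cytosolic ribosomal proteins, also taken by symbol pattern and with a few genes of similar name such as Rpl7l1 among them, had 25 falls and 44 rises among 80 tested, with a median of 0.13. Rpl7l1 fell 2.37-fold and Rpl10 1.71-fold, and Rpl29 rose 1.56-fold. The median of the cytosolic list is smaller than the 0.215 by which upper-quartile factors moved all genes. The difference between lists was not tested.

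**Figure D4:**
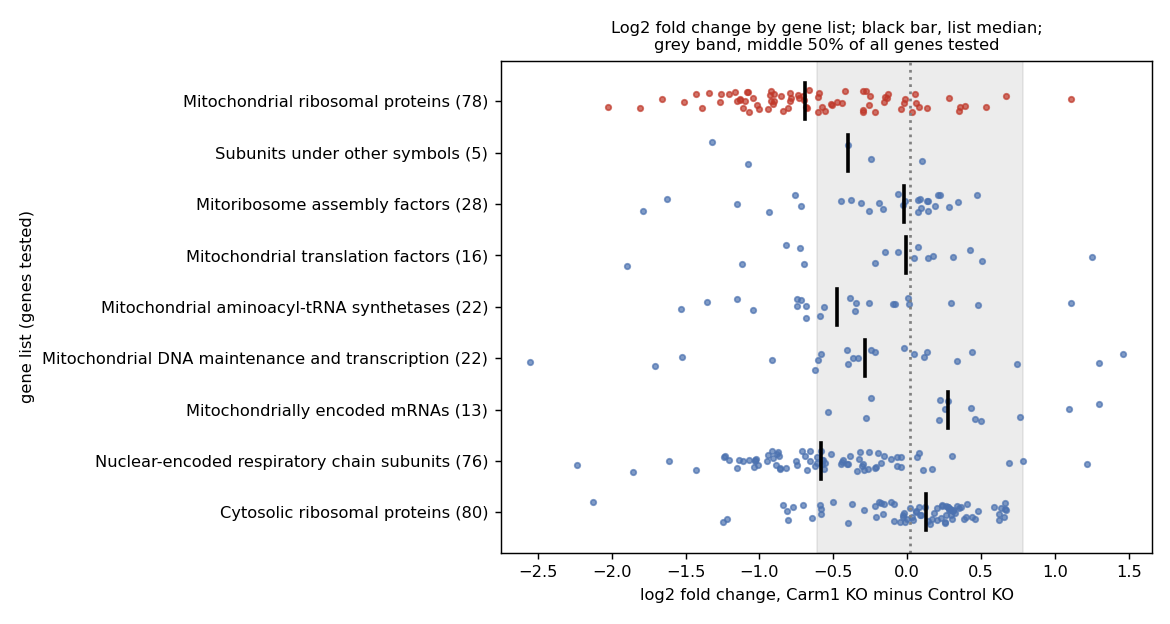
Log2 fold change (Carm1 KO minus Control KO, horizontal axis) of each tested gene by list, with the number tested, the list median as a black bar and the middle 50% of all genes as a grey band. The medians of the mitochondrial ribosomal proteins (-0.69) and the nuclear-encoded respiratory chain subunits (-0.58) are the lowest. Those of the cytosolic ribosomal proteins (0.13) and mitochondrially encoded messenger RNAs (0.27) are above 0. The mitochondrially encoded list holds several genes at low levels, such as mt-Atp8 at 2.23 CPM in Control KO.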

How the data were processed

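RNA was sequenced as 150-base read pairs from 4 Control KO and 4 Carm1 KO libraries. The authors deposited whole-number counts per gene for each library. Quantification was by RSEM, per the labels' protocols, on the mm10 build, per the submitters' processing notes, while the tables have the column layout of another counting program and hold no fractional values. The strand setting is not given in the sources used here. Gene identifiers were paired with symbols from the GENCODE M21 annotation (49056 matched), and identifiers without a symbol held 0.0107% to 0.0158% of counts.

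Counts were filtered (filterByExpr defaults), scaled by TMM and tested with the robust quasi-likelihood test of edgeR 4.0.16 in R 4.3.3, with Benjamini-Hochberg adjustment over 14970 genes and a threshold of 0.05. CPM use TMM-scaled totals, TPM the deposited exonic lengths. Levels are mean ± SD over 4 libraries, and SE is the absolute log2 fold change divided by the square root of F. Floors of 3 counts cover counting error only.

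Named with values were the 10 largest falls and up to 10 largest rises, all members that did not pass, the 4 highest and 4 lowest levels per length, 11 members fixed by role and, of each list, 4 genes with the smallest adjusted p. The members, lists and rule were chosen with earlier results of these data known. Alternatives were other scaling factors, other filters, DESeq2 1.42.0, limma-voom (limma 3.58.1), a test against a 1.5-fold change, a replicate block, a fit without the mitochondrially encoded genes, fits without each library in turn, and, chosen after seeing the data, a split by shared exonic bases. Some genes that these rules name are not reported here.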

Additional observations from a re-analysis of the deposited data

Results flagged for a closer look

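In 6 of 148 groups of 4 libraries checked, over the named genes and summed levels, 1 library stood apart from the other 3 by its gap relative to the range of the group. Chance alone flags about 1 in 20 such groups. Mrps18b was at 12.01 CPM in Carm1 KO replicate 1, against 10.7 to 10.9 CPM in the other libraries of that group. Mrps18a was at 50.4 CPM in Control KO replicate 4, against 47.0 to 47.4 CPM. Mrpl47 was at 25.02 CPM in Control KO replicate 3, against 23.6 to 23.8 CPM. Mrpl9 was at 81.8 CPM in Control KO replicate 1, against 84.3 to 84.8 CPM. The summed level of large-subunit members was 2910 TPM in Carm1 KO replicate 4, against 3017 to 3021 TPM. The ratio of the mean level of large-subunit to small-subunit members was 1.14 in Carm1 KO replicate 2, against 1.13 in the others.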

How the results depend on the processing

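The count of members that fell was 63 without any one library and 54 to 63 under the other scalings, filters and tools, except for 42 in the test against a 1.5-fold change. In all, 42 members fell and 2, Mrps16 and Mrpl9, rose in every alternative. The count of members that rose was 16 with upper-quartile factors, 14 with library totals alone, 13 with at least 5 CPM in 4 libraries, 2 against a 1.5-fold change and 8 to 11 with 1 library left out. The members' median was -0.47 with upper-quartile factors, -0.53 with library totals (all genes moved likewise) and -0.60 with at least 5 CPM in 4 libraries (all genes moved by -0.017), and -0.72 to -0.68 with 1 library left out. Against a 1.5-fold change, the counts of all genes lower and all genes higher were 3444 and 3992, and 69 pathway genes were lower and 16 higher. With 1 library left out, all genes lower numbered 6474 to 6568 and all genes higher 6646 to 6712, and 144 to 154 pathway genes were lower and 80 to 88 higher. Log2 fold changes that turned sign were, with upper-quartile factors, library totals and the 5 CPM filter, Mrpl22 (0.17, 0.12, 0.050), Mrps26 (0.19, 0.14, 0.072) and Mrps9 (0.20, 0.14, 0.077), and, with the first pair, Mrpl10 (0.088, 0.033), Mrpl44 (0.067, 0.012) and Mrpl14 (0.081, 0.026), and, with the first, Mrpl33 (0.055). The Mrps9 log2 fold change also turned without Carm1 KO replicate 2 (range with 1 library left out -0.049 to 0.00795), and the Mrpl53 log2 fold change without Control KO replicate 1 (-0.028) or 3 (-0.021) and Carm1 KO replicate 3 (range -0.057 to 0.092). Counting only matches upstream of the start, CCGGAAG was in 24.6% and the YY1 site in 1.45% of member windows. Libraries with the same replicate number did not deviate together (correlations -0.316 to -0.108, 0 of 4 matched best with their own number), and a fit with the replicate block gave 63 members lower and 9 higher. Mrpl53 had the fewest counts of the members, and what depth limits there was not tested.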
